A study of Mus musculus with 4 samples.

Results

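The genes described here carry the cell from the end of DNA replication through mitosis. They were 42 genes of mitosis and the G2/M transition, taken from a named list, and each was read from the probe set with the highest mean signal over the 4 arrays. Of these, 41 had a probe set, out of 18193 genes on the arrays, and all 41 lay above the level filter, among 13366 genes tested. Ccnb1, which encodes cyclin B1, had no array values here and entered only the promoter counts.

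Total RNA was measured on Affymetrix arrays, which give 1 log2 signal per probe set: 2 GIC arrays, of a tumorigenic subline called glioma-initiating cell-like, and 2 non-GIC arrays, of a nontumorigenic subline. Both sublines came from p53-/- C57BL/6 neural stem cells of the E14.5 telencephalon. In both, the cells had been electroporated with pCMS-EGFP-HRasL61, which expresses GFP beside an activated form of HRas, together with pBabe-neo, selected with neomycin and sorted for GFP. Cells of both sublines thus lacked p53 and carried the activated HRas, so neither group stands for unmodified neural stem cells, and the growth medium held bFGF and PDGF. Whether a subline is 1 clone, and whether its arrays came from separate cultures, is not given in the sources used here, so the spread behind each p-value may be technical only.

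In a dividing cell, cyclins A and B activate the kinase Cdk1, which drives chromosome condensation and spindle assembly. The spindle checkpoint holds back the anaphase-promoting complex until every kinetochore is attached, after which sister chromatids part and the central spindle guides cytokinesis. Transcripts of this programme rise in G2 under the MuvB complex with B-Myb and FoxM1, and their summed level is widely read as a measure of how many cells of a population divide, also in gliomas. On bulk RNA, fewer cells in G2 and mitosis and less of these transcripts per cell cannot be told apart.

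No mitosis or G2/M gene passed the test between GIC and non-GIC, while the median log2 fold change, GIC minus non-GIC, was -0.54 over the 41 genes and -0.01 over all tested genes. The values were on the negative side for 40 of 41 genes (51.5% of all tested genes) and ranged from -1.41 for Racgap1 to 0.01 for Tpx2. The limma fit, with p adjusted by Benjamini-Hochberg over all tested genes, called 0 of the 41, against a background of 1.92% called in either direction, 1.23% higher and 0.688% lower in GIC. The smallest adjusted p was 0.101, for Cdc25b. At an unadjusted p under 0.05 there were 10 of the 41, all with lower means in GIC, beside 8.10% of all tested genes in that direction. Both GIC arrays lay below both non-GIC arrays for 21 genes (24.9% of all tested genes), and both lay above for 0 (25.5%). The fitted difference was at least 2-fold lower for 6 genes (2.26%). The 95% interval of the log2 fold change held 0 for 31 genes and held -1 for 34, so a 2-fold decrease lay within the error for most of them. For 1 gene, exact permutation of 2 arrays against 2 cannot give a two-sided p under 0.33.

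**Figure D1:**
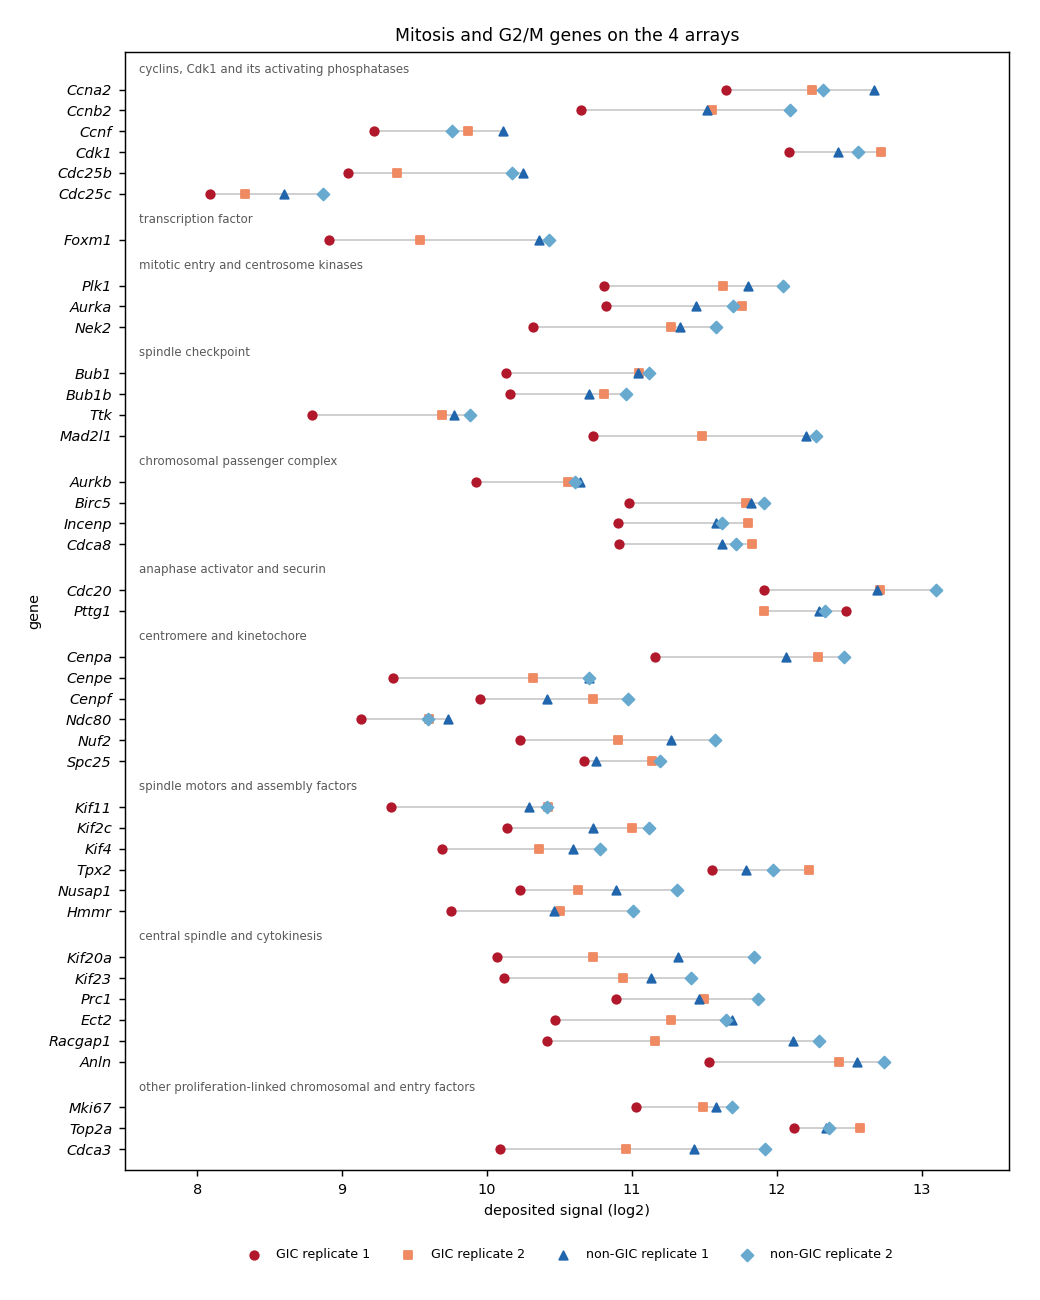
Deposited log2 signal (horizontal axis) of each of the 41 genes, grouped by role, with 1 point per array. GIC replicate 1 is the leftmost point for 40 genes, and Pttg1 is the exception.

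The 2 GIC arrays differed from each other more than the non-GIC arrays did. GIC replicate 1 was the lowest of the 4 arrays for 40 of the 41 genes (30.8% of all tested genes). Its median difference from the non-GIC mean was -0.95 on the log2 scale, and that of GIC replicate 2 was -0.18. GIC replicate 2 stood at least 0.5 above GIC replicate 1 for 33 of the 41 genes (8.59% of all tested genes). GIC replicate 2 fell below both non-GIC arrays for 22 genes (36.2% of all tested genes), between them for 12 and above both for 7. The median absolute difference between the replicates was 0.74 for GIC and 0.20 for non-GIC, against 0.20 and 0.18 over all tested genes. Averaged over the 41 genes, the deviation from each gene's own mean was -0.63 on GIC replicate 1, 0.07 on GIC replicate 2, 0.19 on non-GIC replicate 1 and 0.38 on non-GIC replicate 2. Without GIC replicate 1 the median log2 fold change was -0.18, and 30 of 41 values were negative. Without GIC replicate 2 the median was -0.95, and Racgap1 alone passed the threshold (log2 fold change -1.79, limma adjusted p = 0.0479); the GIC group is then 1 array, assumed to vary like the non-GIC arrays.

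**Figure D2:**
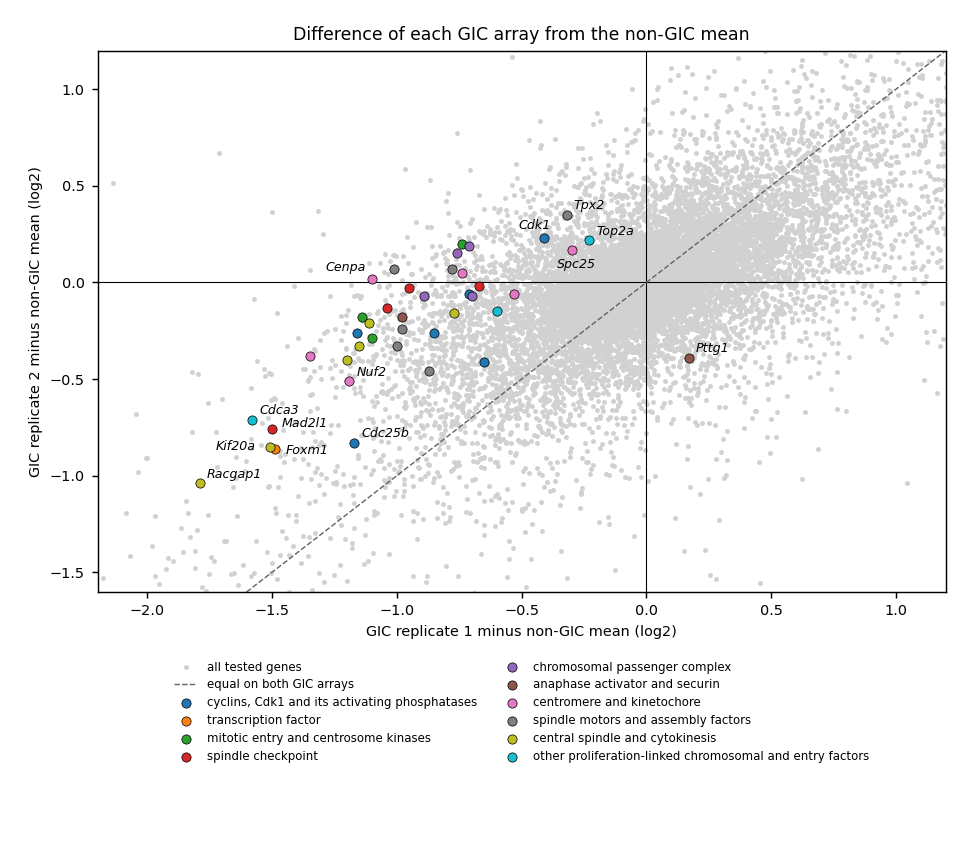
Difference of GIC replicate 1 (horizontal) and GIC replicate 2 (vertical) from the non-GIC mean, on the log2 scale, for the 41 genes (coloured by role) and all tested genes (grey; some lie outside the axes). All but Pttg1 lie left of the dashed line of equal values, and Racgap1, Foxm1, Kif20a, Cdc25b, Mad2l1, Cdca3 and Nuf2 lie more than 0.5 below 0 on both axes.

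The same order of arrays was seen on further probe sets of these genes. Of the 41 genes, 26 had more than 1 probe set past the level filter, which gave 42 probe sets beside those used. GIC replicate 1 was the lowest array on 36 of the 42, against 32.4% of the 24100 named probe sets past the filter. The mean was lower in GIC on 39 of the 42, and 40 had the sign of the probe set used. These probe sets read the same RNA on the same arrays and are not replicates.

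The arrays were also compared by control and marker probe sets. The 3' minus 5' signal of the pyruvate carboxylase control was 0.72 and 0.51 in GIC, replicate 1 first, against 0.42 and 0.47 in non-GIC. The other controls (actin, Gapdh and transferrin receptor) spanned at most 0.13 over the 4 arrays. Of the 8 fibroblast and mural markers, 2 lay at or below the level filter of 5.97 on all arrays, and their mean log2 signal was 9.11 and 8.44 in GIC, against 8.71 and 8.63 in non-GIC. Within that list Col1a1, a fibrillar collagen chain, had 13.59 and 10.70 in GIC, against 13.84 and 14.57 in non-GIC, and its partner chain Col1a2 had 11.54 and 11.72 against 11.46 and 9.28. Of the 6 tested genes of the list, 3 had a log2 fold change below 0 and 3 above. The part of RNA quality or of such cells in the results was not tested. The neural stem and progenitor list had 13 genes with a probe set and a mean signal of 8.38 and 8.25 in GIC, against 8.47 and 8.78 in non-GIC. Vim was between 14.50 and 14.71 on every array, while Olig2 and Prom1 lay below the filter on every array. Of that list, Nes and Fabp7 fell in GIC (log2 fold change -2.07 and -1.51, limma adjusted p = 0.0459 and 0.0258). The other 9 tested genes did not pass. Of the 11 tested genes, 8 had a log2 fold change below 0 and 3 above. Sox9 had the highest, 1.47 (limma adjusted p = 0.231), with 10.13 and 9.24 in GIC against 7.66 and 8.76 in non-GIC. Fabp7 was at 5.23 on both GIC arrays, under the level filter, and was tested only through its non-GIC signals of 6.58 and 6.90, so its fold is of uncertain size. For the other cell types, mean signals in GIC against non-GIC were 6.06 and 6.15 against 5.99 and 6.06 for neurons, and 7.18 and 7.18 against 7.34 and 7.26 for astrocytes. They were 5.87 and 5.87 against 5.89 and 5.73 for microglia and leukocytes, and 6.41 and 6.31 against 6.23 and 6.17 for endothelium. For oligodendrocytes they were 7.62 and 7.53 against 7.27 and 7.42. Of the 7 tested oligodendrocyte genes, 4 had a log2 fold change below 0 and 3 above. Pdgfra had the highest, 2.26 (limma adjusted p = 0.0504), with 12.51 and 12.09 in GIC against 9.68 and 10.41 in non-GIC.

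Promoter letters are shown as a description. Genes of this class are known to carry a cell cycle homology region, TTTGAA, which binds the MuvB complex, and CCAAT boxes, which bind NF-Y. Any link of these letters to the array values was not tested. RefSeq promoters (build GRCm38.p6) were matched for 35 of the 42 genes, and the 250 bases before each annotated start were searched on both strands. CCAAT was found for 27 of the 35 genes, or 77.1%, against 37.5% of 27025 genes with a promoter. TTTGAA was found for 10, or 28.6%, against 18.3%, and both for 9, or 25.7%, against 6.45%. An E2F box, TTTGGCGC or TTTCGCGC, was found for Cdk1 alone, or 2.86%, against 0.759%. In DNA replication and G1/S genes these shares were 60.4% for CCAAT, 12.5% for TTTGAA, 6.25% for both and 14.6% for the E2F boxes, over 48 genes. None of these letter strings contains another. TTTGAA was found for 2 of the 16 genes with both GIC arrays below both non-GIC arrays and for 8 of the 18 measured others. CCAAT was found for 11 of the 16 and for 15 of the 18.

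The windows below are those of the 3 genes with the largest fitted differences among those that hold both strings outside any annotated gene. They belong to Ccnb2 (cyclin B2), at chr9:70421555-70421804, to Cdc20 (an activator of the anaphase-promoting complex), at chr4:118437344-118437593, and to Kif11 (a motor that pushes the spindle poles apart), at chr19:37376132-37376381. The first 2 lie on the minus strand and the third on the plus strand, and each is written 5′ to 3′ on the strand of its gene, with TTTGAA and CCAAT, or their complements TTCAAA and ATTGG, in capitals.
Ccnb2: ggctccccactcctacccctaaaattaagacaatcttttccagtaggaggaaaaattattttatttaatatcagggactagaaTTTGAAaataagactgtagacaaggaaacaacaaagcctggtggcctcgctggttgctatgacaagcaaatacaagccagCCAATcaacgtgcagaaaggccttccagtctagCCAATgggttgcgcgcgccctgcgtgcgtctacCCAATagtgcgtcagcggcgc
Cdc20: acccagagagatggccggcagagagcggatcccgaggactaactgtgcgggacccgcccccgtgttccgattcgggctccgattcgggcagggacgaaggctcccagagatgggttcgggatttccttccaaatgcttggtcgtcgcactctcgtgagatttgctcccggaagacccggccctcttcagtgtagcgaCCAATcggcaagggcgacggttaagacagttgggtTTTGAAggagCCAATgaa
Kif11: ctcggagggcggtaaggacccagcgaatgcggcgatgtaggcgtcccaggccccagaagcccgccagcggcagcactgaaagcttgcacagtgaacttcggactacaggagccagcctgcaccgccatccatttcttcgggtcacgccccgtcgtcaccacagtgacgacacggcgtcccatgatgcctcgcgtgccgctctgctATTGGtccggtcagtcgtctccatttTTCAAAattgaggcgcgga
In Cdc20, the TTTGAA string lies 18 to 13 bases before the start, with CCAAT from base 53 to 49 and from base 8 to 4. In Kif11 the strings lie on the other strand, TTCAAA from base 19 to 14 and ATTGG from base 45 to 41. In Ccnb2 TTTGAA lies farther out, from base 167 to 162, and 3 CCAAT boxes lie between bases 87 and 17. A match of letters is not a measured binding site. Ccnb2 had a log2 signal of 10.65 and 11.55 on the GIC arrays, replicate 1 first, against 11.52 and 12.09 on the non-GIC arrays. Cdc20 had 11.91 and 12.71 in GIC against 12.69 and 13.10 in non-GIC, and Kif11 had 9.34 and 10.42 against 10.29 and 10.41. In each of the 3, GIC replicate 1 was low and GIC replicate 2 lay within or just above the non-GIC range, so the groups overlapped on the probe sets used. On a further Cdc20 probe set they did not, with 11.44 and 12.40 in GIC against 12.44 and 12.79 in non-GIC. On the remaining Cdc20 probe set they overlapped. The log2 fold changes of the 3 genes were -0.71, -0.58 and -0.47 (SE 0.37, 0.32 and 0.39), with limma adjusted p of 0.409, 0.427 and 0.594.

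Among cyclins, Cdk1 and its activating phosphatases, the phosphatase Cdc25b had the lowest log2 fold change on the probe sets used. Cdc25b removes the inhibitory phosphates of Cdk1 at the entry into mitosis. Its signal was 9.04 and 9.38 on the GIC arrays, against 10.25 and 10.17 on the non-GIC arrays. Both GIC arrays were low by more than the distance between replicates, and the log2 fold change was -1.0 (SE 0.19, limma adjusted p = 0.101). Cdc25c, a phosphatase with the same target, had 8.09 and 8.33 in GIC, against 8.60 and 8.87 in non-GIC (log2 fold change -0.53, SE 0.18, limma adjusted p = 0.249). That probe set is of a kind that can bind several transcripts, and on the other Cdc25c probe set the values were 7.56 and 8.34 in GIC against 8.81 and 9.09 in non-GIC. Both Cdc25c probe sets kept the GIC arrays below the non-GIC arrays, and on the other one the log2 fold change was -1.0, like that of Cdc25b.

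Cdk1 itself, the kinase that drives entry into mitosis, had 12.08 and 12.72 in GIC, against 12.42 and 12.56 in non-GIC. The GIC arrays lay on either side of the non-GIC arrays, and the log2 fold change was -0.09 (SE 0.25, 95% interval -0.74 to 0.56). Ccna2, cyclin A2 of S phase and early mitosis, had 11.65 and 12.24 in GIC, against 12.67 and 12.32 in non-GIC, with groups that did not overlap by a narrow gap on GIC replicate 2. Ccnf, an F-box protein of a ubiquitin ligase that limits centrosome duplication, had 9.22 and 9.87 in GIC, against 10.11 and 9.76 in non-GIC, where GIC replicate 2 lay inside the non-GIC range. For the cyclins Ccna2, Ccnb2 and Ccnf, limma's adjusted p lay between 0.360 and 0.552.

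Foxm1, the forkhead factor that works with MuvB on G2/M promoters, had 8.91 and 9.54 on the GIC arrays, against 10.36 and 10.43 on the non-GIC arrays. Both GIC arrays were low, and the non-GIC arrays lay close together (log2 fold change -1.17, SE 0.26, 95% interval -1.84 to -0.50, limma adjusted p = 0.126). The other 2 Foxm1 probe sets past the filter showed the same arrangement, with 8.66 and 9.12 against 9.77 and 9.58, and 8.31 and 8.94 against 9.48 and 9.35. Foxm1 was 2.25-fold lower by the fitted means.

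Mitotic kinases differed in how GIC replicate 2 behaved. Plk1, which promotes mitotic entry and spindle assembly, had 10.81 and 11.63 in GIC, against 11.80 and 12.04 in non-GIC, with no overlap (log2 fold change -0.70, limma adjusted p = 0.341). Nek2, which separates the centrosomes, had 10.32 and 11.27 in GIC, against 11.33 and 11.58 in non-GIC. Aurka, the kinase of spindle poles, had 10.82 and 11.76 in GIC, against 11.44 and 11.70 in non-GIC. GIC replicate 2 was thus the highest array for Aurka, though GIC replicate 1 was the lowest for all 3 kinases.

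In the spindle checkpoint, Mad2l1 stood lower on both GIC arrays. Its protein, Mad2, binds Cdc20 and keeps the anaphase-promoting complex inactive. Mad2l1 had 10.73 and 11.48 in GIC, against 12.20 and 12.27 in non-GIC (log2 fold change -1.13, SE 0.28, limma adjusted p = 0.146). Both arrays of GIC lay well under the non-GIC pair. Its partners in the checkpoint leaned on GIC replicate 1: the kinase Bub1 had 10.13 and 11.05 in GIC, against 11.04 and 11.12 in non-GIC. Bub1b, which encodes BubR1 of the mitotic checkpoint complex, had 10.16 and 10.81 in GIC, against 10.70 and 10.96 in non-GIC. Ttk, the kinase Mps1 at the top of the checkpoint, had 8.79 and 9.69 in GIC, against 9.77 and 9.88 in non-GIC. On GIC replicate 2 these 3 genes lay within 0.13 of the non-GIC mean.

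The 4 genes of the chromosomal passenger complex, which corrects faulty attachments and then moves to the central spindle, had log2 fold changes from -0.48 to -0.26. Aurkb, its kinase, had 9.92 and 10.56 in GIC, against 10.64 and 10.61 in non-GIC. Birc5, which encodes survivin, had 10.98 and 11.79 in GIC, against 11.82 and 11.91 in non-GIC. For both, GIC replicate 2 lay just under the non-GIC pair. The scaffold Incenp had 10.90 and 11.80 in GIC, against 11.58 and 11.62 in non-GIC, and Cdca8, which encodes borealin, had 10.91 and 11.83 in GIC, against 11.62 and 11.72 in non-GIC. GIC replicate 2 was the highest array for Incenp and Cdca8 on the probe sets used. On a further Incenp probe set both GIC arrays lay below both non-GIC arrays (9.63 and 10.39 against 10.44 and 10.41). On the remaining Incenp probe sets past the filter GIC replicate 2 was again the highest. For the 4 genes, limma's adjusted p lay between 0.484 and 0.740.

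Pttg1, which encodes securin, the inhibitor of separase, was the 1 gene whose order differed. It had 12.48 and 11.91 on the GIC arrays, against 12.29 and 12.33 on the non-GIC arrays. GIC replicate 1 was the highest array and GIC replicate 2 the lowest, whereas GIC replicate 1 was the lowest array for the other 40 genes. On the other 2 Pttg1 probe sets GIC replicate 2 was also the lowest array, with 10.49 and 10.13 in GIC against 10.49 and 10.57 in non-GIC, and 6.36 and 6.30 against 6.52 and 6.38. The log2 fold change was -0.11 (SE 0.23, limma adjusted p = 0.843).

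The 6 centromere and kinetochore genes centred on a log2 fold change of -0.44 (median). Nuf2, a subunit of the microtubule-binding Ndc80 complex, had 10.23 and 10.90 in GIC, against 11.27 and 11.57 in non-GIC (log2 fold change -0.85, SE 0.28, limma adjusted p = 0.234). Its partners in that complex did not share the gap: Ndc80 had 9.13 and 9.60 in GIC, against 9.73 and 9.59 in non-GIC, and Spc25 had 10.67 and 11.14 in GIC, against 10.75 and 11.19 in non-GIC. The groups thus overlapped for Ndc80 and Spc25 and not for Nuf2, and the difference between these genes was not tested. Cenpe, a kinetochore motor, had 9.35 and 10.32 in GIC, against 10.70 and 10.70 in non-GIC (log2 fold change -0.87, limma adjusted p = 0.301). Cenpa, the centromeric histone H3 variant, had 11.16 and 12.28 in GIC, against 12.06 and 12.46 in non-GIC. Cenpf, a large protein of the outer kinetochore, had 9.95 and 10.73 in GIC, against 10.41 and 10.97 in non-GIC. For Cenpa and Cenpf, GIC replicate 2 lay between the non-GIC arrays on the probe sets used. On a further Cenpa probe set GIC replicate 2 was the highest array, with 6.83 and 7.33 in GIC against 6.68 and 7.20 in non-GIC. The log2 fold change was 0.14 on that probe set and -0.08 for Cenpa with the mean of all its probe sets.

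Spindle motors and assembly factors spanned from -0.67 to 0.01 on the log2 scale. Nusap1, which bundles spindle microtubules, had 10.23 and 10.63 in GIC, against 10.89 and 11.31 in non-GIC (log2 fold change -0.67, SE 0.24, limma adjusted p = 0.264). The X-linked chromokinesin Kif4 had 9.69 and 10.36 in GIC, against 10.59 and 10.78 in non-GIC. Both genes kept the GIC arrays below the non-GIC arrays. Kif2c, a microtubule depolymerase, had 10.14 and 11.00 in GIC, against 10.73 and 11.12 in non-GIC. Hmmr, a spindle pole protein and hyaluronan receptor, had 9.75 and 10.50 in GIC, against 10.46 and 11.01 in non-GIC. In both, GIC replicate 2 fell inside the non-GIC range on the probe set used, while for Kif11 it lay just above that range. The groups did not overlap on some further Hmmr probe sets (such as 8.81 and 9.61 in GIC against 9.76 and 10.31 in non-GIC). They overlapped on another (8.55 and 9.60 against 9.47 and 9.93). Tpx2, which activates Aurora A on the spindle, had 11.55 and 12.22 in GIC, against 11.79 and 11.97 in non-GIC. Its GIC arrays bracketed the non-GIC arrays, and the log2 fold change was 0.01 (SE 0.26, 95% interval -0.68 to 0.70). That sign turned with median centring (-0.02).

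Among central spindle and cytokinesis genes, log2 fold changes ranged from -1.41 for Racgap1, the lowest of the 41, to -0.47 for Prc1. Racgap1, the GTPase-activating subunit of centralspindlin, had 10.41 and 11.16 on the GIC arrays, against 12.11 and 12.29 on the non-GIC arrays. Both GIC arrays lay at least 0.95 below either non-GIC array, and the log2 fold change was -1.41 (SE 0.29, 95% interval -2.16 to -0.66, limma adjusted p = 0.109), or 2.66-fold lower. A further Racgap1 probe set past the filter had 10.28 and 11.13 in GIC, against 12.06 and 12.11 in non-GIC. Kif20a, the kinesin that carries the passenger complex to the central spindle, had 10.07 and 10.73 in GIC, against 11.32 and 11.84 in non-GIC (log2 fold change -1.18, SE 0.31, limma adjusted p = 0.164). Ect2, the RhoA exchange factor that Racgap1 recruits, had 10.47 and 11.27 in GIC, against 11.69 and 11.65 in non-GIC (log2 fold change -0.80, SE 0.30, limma adjusted p = 0.273). These 3 genes were low on both GIC arrays, and more so on replicate 1.

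Kif23, the motor subunit of centralspindlin, had 10.12 and 10.94 in GIC, against 11.13 and 11.41 in non-GIC, and the ring scaffold anillin, Anln, had 11.53 and 12.43 in GIC, against 12.55 and 12.74 in non-GIC. The groups did not overlap for either gene on the probe set used. On the other Anln probe set they did, with 8.18 and 8.83 in GIC against 8.80 and 9.22 in non-GIC. Prc1, which crosslinks the antiparallel microtubules of the midzone, had 10.89 and 11.50 in GIC, against 11.46 and 11.87 in non-GIC, with GIC replicate 2 just inside the non-GIC range. Of the 6 genes of this role, 5 had both GIC arrays below both non-GIC arrays, beside 24.9% of all tested genes. An unadjusted limma p under 0.05 was reached by 3, all lower in GIC, beside 8.1% of all tested genes in that direction. After adjustment 0 passed, beside 0.688% of all tested genes lower in GIC.

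The remaining 3 genes include the usual proliferation markers. Mki67, which encodes the Ki-67 coat protein of mitotic chromosomes, had 11.03 and 11.49 in GIC, against 11.58 and 11.69 in non-GIC (log2 fold change -0.37, SE 0.21, 95% interval -0.92 to 0.17, limma adjusted p = 0.434). Top2a, the topoisomerase that untangles sister chromatids, had 12.12 and 12.57 in GIC, against 12.34 and 12.36 in non-GIC, so that its GIC arrays bracketed the non-GIC arrays (95% interval -0.51 to 0.51). Cdca3, an adaptor for the degradation of the Cdk1 inhibitor Wee1, had 10.09 and 10.96 in GIC, against 11.43 and 11.92 in non-GIC (log2 fold change -1.15, SE 0.36, limma adjusted p = 0.211). For Mki67 and Cdca3 both GIC arrays lay below both non-GIC arrays.

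**Figure D3:**
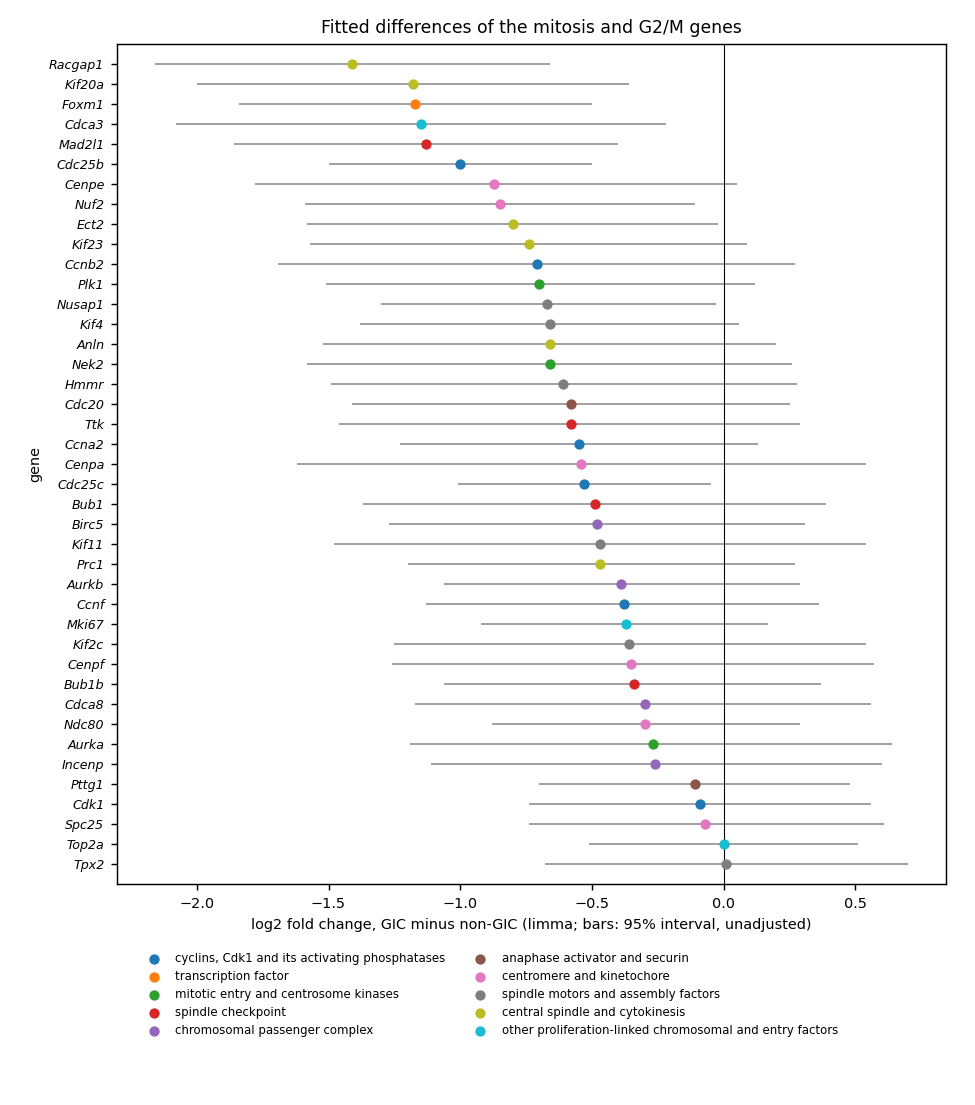
Fitted log2 fold change, GIC minus non-GIC, of the 41 genes in order of size, with 95% intervals from limma before any adjustment and points coloured by role. The points run from -1.41 for Racgap1 to 0.01 for Tpx2, and 31 of the 41 intervals hold 0.

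Other genes of the mitotic programme, from lists of the same pathway, were laid beside these values. None of their tested members passed, beside 1.92% of all tested genes. The tested genes were 58 other kinetochore, checkpoint and spindle genes, 20 condensin and cohesin genes and 17 genes of the anaphase-promoting complex and its partners. The rest were 13 MuvB, Myb and E2F regulators and 10 genes acting as brakes on Cdk1 or linked to its arrest. At an unadjusted p under 0.05 there were 14 lower and 0 higher in the first of these lists, 7 and 0 in the second, 2 and 2 in the third, 1 and 0 in the fourth and 2 and 1 in the fifth, beside 8.10% lower and 9.75% higher of all tested genes. Median log2 fold changes were -0.53 for the other kinetochore and spindle genes, -0.43 for condensin and cohesin, 0.00 for the anaphase-promoting complex, -0.12 for the regulators and -0.23 for the brakes. GIC replicate 1 was the lowest array for 52 of 58, 18 of 20, 7 of 17, 9 of 13 and 6 of 10 genes of these lists, beside 30.8% of all tested genes.

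In these lists the genes with the smallest p were as follows. Mad2l2, an adaptor of DNA repair and of the anaphase-promoting complex, had 8.49 and 8.48 in GIC, against 9.38 and 9.25 in non-GIC (log2 fold change -0.83, limma adjusted p = 0.0928), and Oip5, a loading factor of the centromeric histone, had 8.21 and 8.53 against 9.14 and 9.22. Both were low on both GIC arrays, and for Mad2l2 the 2 GIC arrays were nearly equal. Sgo2a, a protector of centromeric cohesion, had 9.16 and 9.67 in GIC, against 10.51 and 10.47 in non-GIC, and the condensin subunit Ncapd2 had 9.78 and 10.50 against 11.26 and 11.46. Their log2 fold changes were -1.08 and -1.22, with limma adjusted p of 0.119 and 0.139. Of the anaphase-promoting complex, Anapc11, its RING subunit, had 11.55 and 11.58 in GIC, against 12.02 and 12.16 in non-GIC, and Anapc15 had 9.21 and 9.64 against 10.11 and 10.07.

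E2f2 had 6.14 and 6.43 in GIC, against 7.01 and 6.75 in non-GIC, whereas E2f1, a related activator of S-phase genes, had 9.98 and 10.31 in GIC, against 9.72 and 9.56 in non-GIC. The groups did not overlap for either, in opposite directions, with limma adjusted p of 0.177 for E2f2 and 0.284 for E2f1. Among the brakes, the checkpoint kinase Chek1 had 8.42 and 9.27 in GIC, against 9.77 and 9.79 in non-GIC. Gadd45b, a stress-induced protein linked to G2 arrest, lay on the other side, with 10.94 and 10.64 in GIC against 9.75 and 9.83 in non-GIC (log2 fold change 1.0, SE 0.18, limma adjusted p = 0.0926).

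For DNA replication and G1/S genes, over 57 tested genes, the median log2 fold change was -0.45 and 0 passed the threshold (1.92% of all tested genes). With an unadjusted p under 0.05 there were 14 lower and 1 higher, beside 8.10% lower and 9.75% higher of all tested genes. GIC replicate 1 was the lowest array for 50 of the 57 (30.8% of all tested genes). Median differences from the non-GIC mean were -0.83 for GIC replicate 1 and -0.16 for GIC replicate 2, beside -0.95 and -0.18 for the mitosis and G2/M genes. Cdt1, a licensing factor of replication origins, had 10.56 and 11.61 in GIC, against 12.70 and 12.49 in non-GIC (log2 fold change -1.51, SE 0.38, limma adjusted p = 0.149), and the DNA ligase Lig1 had 10.08 and 10.61 against 11.58 and 11.11. Over 9 tested CDK inhibitors and Rb family genes the median was 0.23, with 0 past the threshold (1.92% of all tested genes). At an unadjusted p under 0.05, 1 was higher, beside 9.75% of all tested genes. Rbl1, which encodes p107, had 10.49 and 10.88 in GIC, against 9.84 and 10.10 in non-GIC. Rb1 had 10.48 and 9.18 in GIC, against 8.54 and 8.77 in non-GIC, so that GIC replicate 1 was its highest array (log2 fold change 1.17, SE 0.46, limma adjusted p = 0.288). GIC replicate 1 was the lowest array for 1 of these 9 genes. The difference between any of these lists and the mitosis and G2/M genes was not tested.

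**Figure D4:**
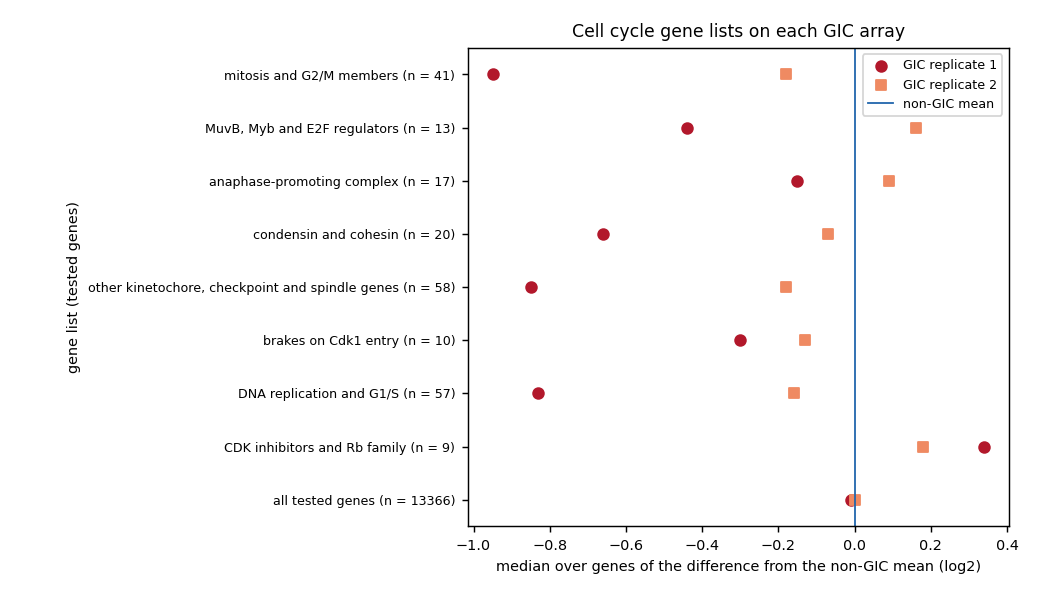
Median difference from the non-GIC mean (log2) on each GIC array, for the mitosis and G2/M genes, other cell cycle lists and all tested genes, with the number of tested genes. On GIC replicate 1 the mitosis and G2/M genes lie at -0.95 and the replication genes at -0.83, while on GIC replicate 2 both lie between -0.20 and 0.

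The lists parted between the 2 non-GIC arrays. Non-GIC replicate 2 was above replicate 1 for 35 of the 41 mitosis and G2/M genes, with a median difference of 0.18 on the log2 scale, and for 48.0% of all tested genes. For DNA replication and G1/S genes it was above for 10 of 57, or 17.5%, with a median of -0.20. Differences of the mitosis and G2/M genes ran from -0.36 for Ccna2 to 0.56 for Ccnb2 and Cenpf. Between the GIC arrays both lists differed in the same direction, with GIC replicate 2 above replicate 1 for 40 of the 41 genes and for 56 of 57 replication genes (49.1% of all tested genes), and medians of 0.74 and 0.70. Each of these differences rests on 1 pair of arrays and has no test.

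**Figure D5:**
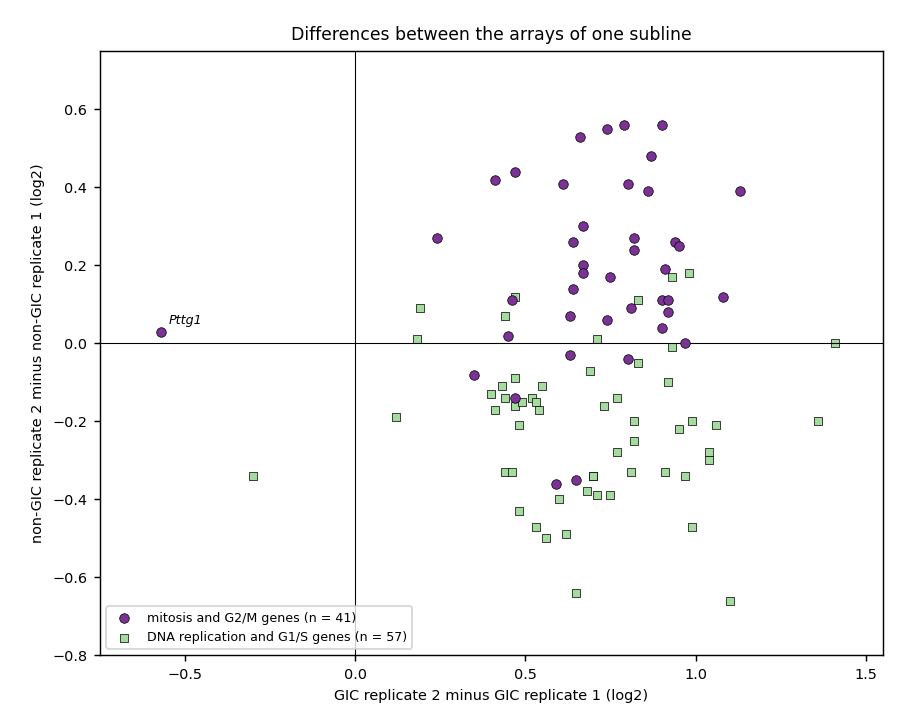
Difference between the replicates of GIC (horizontal) and of non-GIC (vertical), on the log2 scale, for the mitosis and G2/M genes and the DNA replication and G1/S genes. Both sets lie mostly right of 0, most mitosis and G2/M genes lie above the horizontal line and most replication genes below it; Ccnd2, at 3.83 on the vertical axis, lies outside the plot.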

How the data were processed

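Total RNA of 2 GIC and 2 non-GIC samples was labelled with biotin by the Affymetrix One-Cycle procedure, per the labels' protocols. The deposited table holds log2 signals per probe set, 45101 in all, and base 2 was inferred from their range. The array medians were near equal (6.58 to 6.63), so the deposited values shared a common centre. Medians do not show whether the arrays share a scale over the whole range of signal. How background was corrected and probes were summarised and normalized is not given in the sources used here. No pair of arrays held identical values. Depth is not defined for arrays, and their number limits the precision.

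Probe sets were named through the platform annotation, with symbols updated by Entrez identifier to the RefSeq table of GRCm38.p6; 34945 carried a single symbol and were kept, while 932 with several symbols and 9160 without a name here were left out, as were 64 control probe sets. Each gene used its probe set with the highest mean. Genes with at least 2 arrays above the 40th percentile of all values (5.97) entered a fit by limma 3.58.1 (R 4.3.3) with lmFit and trended eBayes and no term but group; two-sided p-values were adjusted by Benjamini-Hochberg and called under 0.05, with 2 residual and 2.72 prior degrees of freedom. All printed values are log2 signals or their differences, GIC minus non-GIC unless stated. Intervals are limma's 95% intervals on 4.72 degrees of freedom, before adjustment.

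The members and lists were chosen with earlier results of these data known, so lists are described by counts and medians only. Named genes were all members, and in each other list the genes past the threshold or else the 2 with the smallest p. Printed promoters were the 3 with the largest differences among members holding TTTGAA and CCAAT; a window inside an annotated gene was passed over, a condition added after seeing the data. The procedure was tested on simulated data with independent noise and shifts equal on both GIC arrays. That setting does not cover a shift shared by many genes on a single GIC array. Replicate numbers did not pair the arrays by the labels. Alternatives covered the replicate block, normalization, filters, probe set choice, the variance model and each array left out. Plots used matplotlib 3.10.9 under Python 3.11.15.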

Additional observations from a re-analysis of the deposited data

How the results depend on the processing

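With 2 arrays a group, the limma fit called no single mitosis or G2/M gene; all 41 lay above the level filter, so signal over background did not remove any of them. The labels do not say that replicate numbers pair arrays, and deviations of GIC replicate 1 and non-GIC replicate 1 correlated at -0.324 over tested genes. With the replicate block, 29 of all genes passed instead of 257, and 0 of the 41. A block with crossed numbers, chosen after seeing the data, gave 685 of all genes, 0 of the 41 and 3 of the other cell cycle lists (Gadd45b, Lig1 and Mcm3, named after their values were seen). Leaving out 1 array gave 12 to 188 of all genes (12 without non-GIC replicate 1, 56 without non-GIC replicate 2, 77 without GIC replicate 1), 0 to 1 of the 41, medians of the 41 from -0.95 to -0.18, and 0 to 1 gene of the other lists (Cdt1 without GIC replicate 2); a group left with 1 array takes its spread from the other arrays. Under quantile normalization, median centring, other filters, other probe set choices and other variance models, 0 of the 41 passed (of 40 without probe sets of the s and x kinds, where Aurkb was not tested), and the median lay between -0.57 and -0.52. Signs turned for Top2a with quantile normalization (0.02) and for Tpx2 with median centring (-0.02) or the mean of its probe sets (-0.01). Leaving out 1 array turned signs in these genes, with lowest and highest log2 fold changes of -0.41 and 0.23 for Cdk1, -0.74 and 0.20 for Aurka, -0.71 and 0.19 for Incenp, -0.76 and 0.15 for Cdca8, -1.10 and 0.02 for Cenpa, -0.74 and 0.05 for Cenpf, -0.30 and 0.17 for Spc25, -1.01 and 0.07 for Kif11, -0.78 and 0.07 for Kif2c, -0.23 and 0.22 for Top2a, -0.39 and 0.17 for Pttg1 and -0.32 and 0.35 for Tpx2. The causes of these changes were not tested.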
